A study of Homo sapiens with 9 samples.

Results

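The 38 genes described here encode the glycolytic pathway and the core of the response to low oxygen, and they were taken by gene symbol from the 60829 rows of a gene table made from H1, a long-established human embryonic stem cell line. Each of the 38 symbols matched 1 row. By role they comprise 4 transporters for glucose uptake and lactate export, 11 genes of upper glycolysis, 6 of lower glycolysis, 3 that set the fate of pyruvate, 4 for the hypoxia-inducible factors and their hydroxylases, and 10 targets of hypoxia signalling.

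Total RNA depleted of ribosomal RNA was sequenced from 2 clones of H1. The knockout clone (chrX-KO_H1, genotype label "knock out") carries a knockout on chromosome X labelled HERVHlin, after the HERVH family of endogenous retroviruses, and gave 5 libraries. The control clone (chrX-ctrl_H1, genotype label WT) gave 4 libraries. Both were grown in mTESR medium on vitronectin, a culture for stem cells, although a treatment label on every library calls the cells differentiated. The libraries of a clone come from consecutive passages of it, handled as technical replicates in the series design and called biological in the titles. With a single clone on each side, p-values reflect only how much passages varied, and a difference between the clones cannot be told apart from a difference made by the knockout.

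Glycolysis splits glucose into pyruvate and yields ATP without oxygen. Pluripotent human cells are known for running it at a high rate while oxygen is present and for exporting lactate. The hypoxia-inducible factors are transcription factors whose alpha subunits are marked for destruction by prolyl hydroxylases when oxygen is at hand. When oxygen is scarce they accumulate and raise the transcription of glucose transporters, glycolytic enzymes, pyruvate dehydrogenase kinase and angiogenic factors.

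The libraries held 21434888 to 31192630 reads in the knockout clone and 19838682 to 30388797 reads in the control clone. Values are normalized counts, that is reads divided by 1 size factor per library, and 1 read was worth 0.737 to 1.55 of them. Protein-coding genes took 26.3% to 47.5% of the reads in the knockout clone and 27.5% to 50.8% in the control clone. Control 3 stood apart, being the highest of the 9 libraries for 49.2% of tested protein-coding genes. Of the rows that the authors marked as knocked out, gene.human_00015544 had 25.9 to 73.0 normalized counts in the knockout clone and 1316 to 3935 in the control clone. Another had 68.0 to 169 in the knockout clone and 312 to 1036 in the control clone. The third, gene.human_00011326, overlapped between the clones at 1149.5 to 1861 in the knockout clone and 1711 to 3433 in the control clone, and did not pass the test (limma adjusted p = 0.44).

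All 10 pluripotency markers examined were expressed, and their sum was 29058 to 44945 normalized counts in the knockout clone and 35278 to 77605 in the control clone. All 10 had negative log2 fold changes, knockout over control, with a median of -0.46. Of the 1713 tested protein-coding genes averaging at least 1000 normalized counts, 1403 were negative as well, with a median of -0.17. The marker median was -0.26 without control 3, -0.36 with size factors from protein-coding genes and -0.19 with quantile normalization. Limma and edgeR called 0 of the 10 markers, while DESeq2 called EPCAM lower in the knockout clone (adjusted p = 0.049). The part of the marker shift in the members' values was not tested. Markers of other cell types were mixed. Under 10 normalized counts in every library were 4 of 5 endoderm markers, 3 of 5 of mesendoderm and mesoderm, 3 of 5 of trophectoderm and amnion, 2 of 5 neural and 2 of 7 fibroblast markers, among them SOX17, TBXT, CDX2, SOX1 and LUM. The summed lists had 16.4 to 51.6, 34.6 to 52.7, 111 to 212, 754 to 1063 and 2884 to 4510 normalized counts in the knockout clone, in that order, and 25.5 to 149, 43.4 to 64.8, 107 to 233, 648 to 1583 and 3239 to 5814 in the control clone. THY1, COL1A2, COL1A1, NES, OTX2, KRT7, TBX6 and AFP made up most of these sums. In the fibroblast list THY1 had 1960 to 3166 normalized counts in the knockout clone and 2274 to 4217 in the control clone. COL3A1, DCN, LUM and POSTN of that list had at most 24.9 in any library.

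No member passed the test between the clones. With limma across the 27777 tested rows, 0 of 38 members had a Benjamini-Hochberg adjusted p under 0.05, where 0.54% of all tested rows did. The lowest adjusted p of a member was 0.41, for PDK1. The count was also 0 of 38 with edgeR, which called 0.544% of rows, with DESeq2, which called 2.14%, and in the authors' deposited table, which called 2.05%. Before adjustment, 4 members had a limma p under 0.05 (10.5%, against 8.63% of all tested rows). PDK1 was higher in the knockout clone, and EGLN3, SLC16A1 and HK1 were lower. The counts before adjustment were 5 with edgeR (7.9% of rows), 5 with DESeq2 (8.51%) and 5 with size factors from protein-coding genes (8.73%).

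The intervals say how large a difference these libraries could still hold. For 32 of 38 members (84.2%) the 95% interval of the difference lay within 2-fold either way, a log2 fold change of -1 to 1. Of all tested rows 48.9% met this, as did 82.3% of the 1713 protein-coding genes averaging at least 1000 normalized counts. The members whose intervals reached past 2-fold were PFKFB4, PDK1, EGLN3, CA9, NDRG1 and DDIT4. The median log2 fold change of the members, knockout over control, was -0.11, with a range of -0.65 to 1.20, and the median of all tested protein-coding genes was -0.09. With size factors taken from protein-coding genes the member median was -0.0026 and 19 of 38 members were positive, against 12 of 38 with the authors' size factors. That rescaling put the median of all tested rows at 0.11, against 0.01 with the authors' size factors. The member median lay below that of all tested rows with both sets of factors. With quantile normalization the member median was 0.14, above the 0.01 of all tested rows, so its sign depended on the normalization. The 6 role groups had medians between -0.13 and -0.06 with the authors' size factors.

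**Figure D1:**
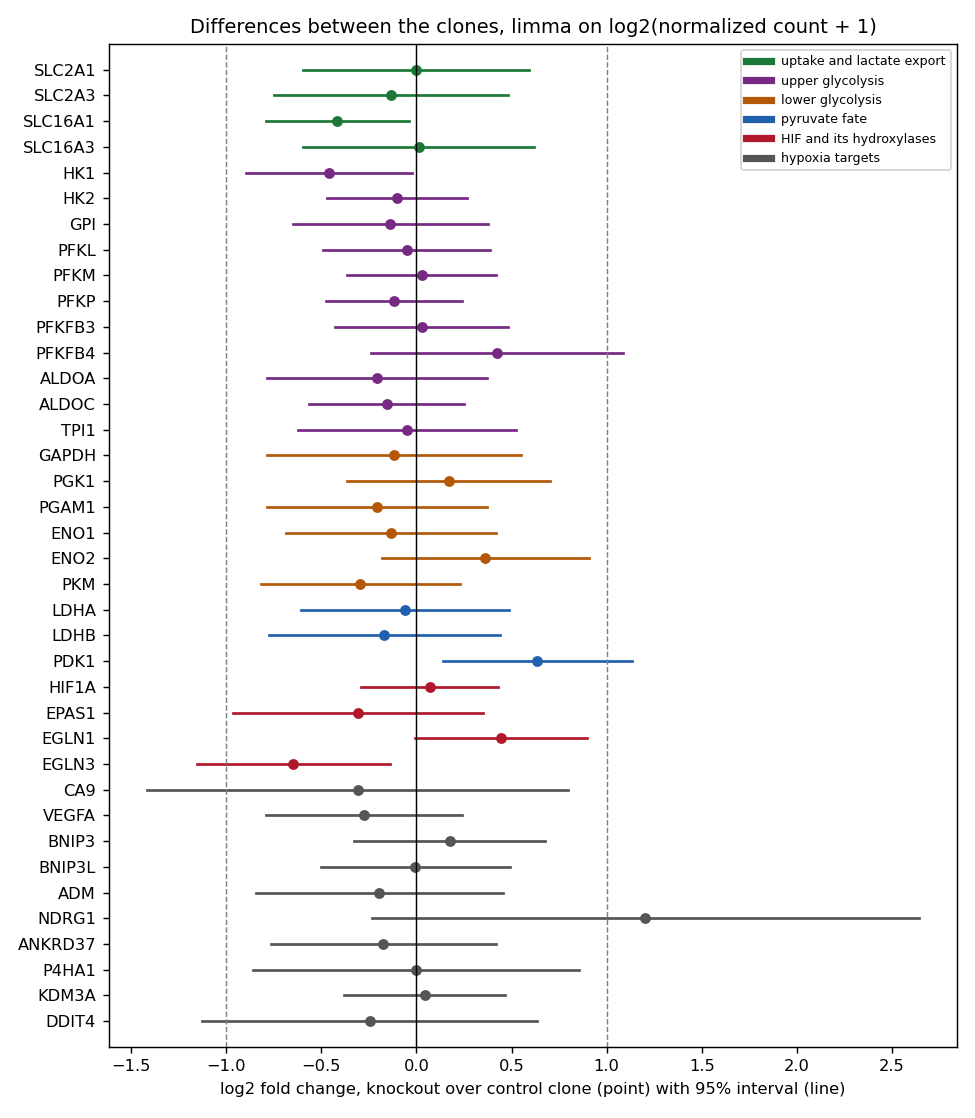
Log2 fold change of each of the 38 members, knockout over control clone (points), with its 95% interval from limma (lines), coloured by role. Dashed lines mark 2-fold in either direction; 32 intervals lie inside them, and those of PDK1, EGLN3, SLC16A1 and HK1 leave out 0 before adjustment.

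The members' levels spanned over 3 orders of magnitude in both clones. Levels of different genes are given here per kilobase of merged exons, so that long genes are not favoured. GAPDH, which oxidises glyceraldehyde phosphate, was the highest with 13062 ± 3236 normalized counts per kilobase in the knockout clone (SD, n = 5) and 14637 ± 5791 in the control clone (SD, n = 4). LDHB, ENO1 and TPI1 followed at 4614, 4289 and 4279.5 per kilobase in the knockout clone and 5399, 4774 and 4534 in the control clone, and they did not differ from each other beyond their spread. ALDOA, PGAM1 and LDHA came next, from 2554 to 3079.7 per kilobase in the knockout clone and from 2721 to 3609 in the control clone. The regulators PDK1, EGLN1 and EGLN3 sat far lower than these, at 89.2 and 57.8, 61.0 and 44.7, and 29.7 and 47.4 per kilobase in the knockout and control clones. Not all regulators were below the enzymes, as HIF1A was at 499 and 482 and HK1 at 225 and 316. The lowest member was EPAS1, at 3.86 per kilobase in the knockout clone and 4.62 in the control clone.

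**Figure D2:**
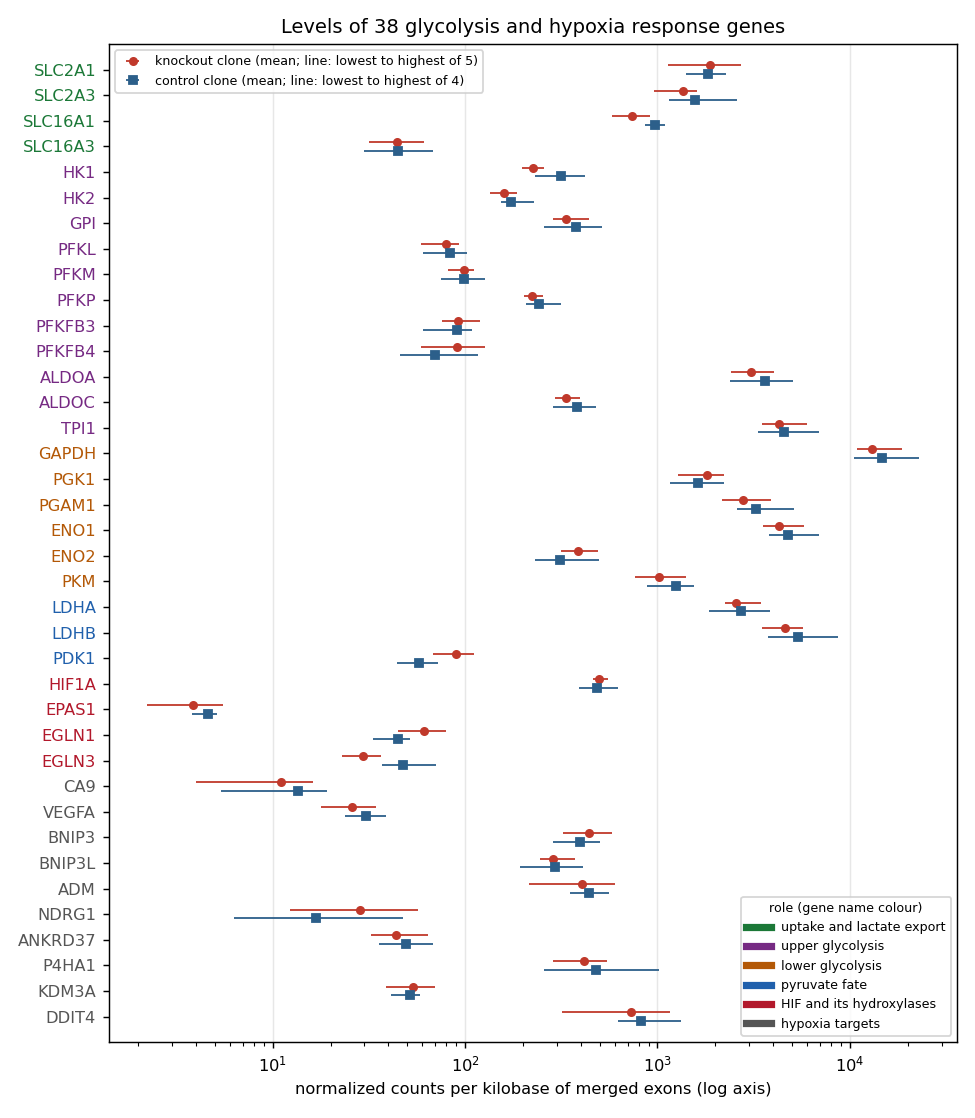
Normalized counts per kilobase of merged exons (log axis) for the 38 members, with the mean of each clone and a line over its lowest to highest library. GAPDH is the highest at 13062 in the knockout clone and 14637 in the control clone, and EPAS1 the lowest at 3.86 and 4.62.

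Of the hypoxia-inducible factors, HIF1A was close to even between the clones with the authors' size factors, and EPAS1 had too few reads to say. HIF1A, the alpha subunit found in most cells, had 2386 to 2839 normalized counts in the knockout clone, with a median of 2462, and 2012 to 3211 in the control clone. The knockout values lay within the control range, and the log2 fold change was 0.07 with a 95% interval of -0.29 to 0.43 (limma adjusted p = 0.91). For HIF1A it was 0.18 with size factors from protein-coding genes and 0.31 with quantile normalization. EPAS1, which encodes the alpha subunit of HIF-2, had 16.3 to 40.2 normalized counts in the knockout clone and 28.0 to 37.4 in the control clone. Its log2 fold change was -0.31, and so few reads leave the interval wide, at -0.97 to 0.35. The RNA of an alpha subunit does not report its protein, whose amount the hydroxylases set.

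The prolyl hydroxylases among the members had values of opposite sign, EGLN3 with lower and EGLN1 with higher means in the knockout clone. EGLN2, a further prolyl hydroxylase outside the members, had a log2 fold change of -0.47 in the authors' deposited table (DESeq2 adjusted p = 0.69). EGLN1, or PHD2, is the main oxygen sensor that marks HIF1A for destruction, and EGLN3, or PHD3, is a relative that HIF itself induces. EGLN3 (chr14:33924231-34462774, GRCh38) had 229, 180.4, 268, 169 and 245 normalized counts in knockout 1 to 5 and 288, 315, 520 and 274 in control 1 to 4. All 5 knockout libraries lay below all 4 control libraries, and no other member separated the clones in this way, while 3.95% of all tested rows did and 2.6% did with the knockout clone lower. Its log2 fold change was -0.65 ± 0.23 (SE) with a 95% interval of -1.16 to -0.14, or 0.639 times the control level (limma adjusted p = 0.41). The authors' deposited table gives its adjusted p as 0.155, the lowest of a member there. Control 3 was the highest of the control libraries, and without it the log2 fold change was -0.44. One processed copy of the gene in the table had 6.52% of its level in the knockout clone and 2.31% in the control clone, and with that copy added the log2 fold change was -0.59. In bulk RNA such a value cannot tell fewer cells expressing a gene from less RNA per cell.

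EGLN1 (chr1:231363751-231425044) had 490.5, 327, 579, 426 and 394 normalized counts in the knockout clone and 378, 241, 365 and 315 in the control clone. The clones overlapped, knockout 2 lying below control 1 and 3. The log2 fold change came to 0.44, with an interval of -0.01 to 0.89 (limma adjusted p = 0.59).

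Reading the pair as a ratio within each library removes the library's scaling. EGLN3 over EGLN1 was 0.468, 0.553, 0.464, 0.398 and 0.623 in knockout 1 to 5 and 0.762, 1.31, 1.42 and 0.869 in control 1 to 4. Every knockout ratio lay below every control ratio. The mean log2 ratio was -1.01 ± 0.25 (SD, n = 5) in the knockout clone and 0.08 ± 0.44 (SD, n = 4) in the control clone, a difference of -1.09. The two-sided exact permutation p was 0.0079, the smallest that 5 against 4 libraries can give, and 0.095 after adjustment over the 12 ratios computed, so it did not pass. A single ratio cannot pass that adjustment in this design.

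The DNA just before the RefSeq starts of these genes differs in the letters that hypoxia-inducible factors can bind. The factors recognise ACGTG or GCGTG, which read CACGT or CACGC on the other strand. The 250 bases before the start are printed 5′ to 3′ for 3 of the genes with the largest differences, EGLN3, EGLN1 and PDK1, and for LDHA as a glycolytic gene with several matches. This choice was made after their values were seen. The sequences are from RefSeq, build GRCh38.p14, and capitals mark each match on either strand. EGLN3 lies at chr14:33951075-33951324 on the minus strand, EGLN1 at chr1:231422288-231422537 on the minus strand, PDK1 at chr2:172555123-172555372 on the plus strand, and LDHA at chr11:18394313-18394562 on the plus strand.
EGLN3: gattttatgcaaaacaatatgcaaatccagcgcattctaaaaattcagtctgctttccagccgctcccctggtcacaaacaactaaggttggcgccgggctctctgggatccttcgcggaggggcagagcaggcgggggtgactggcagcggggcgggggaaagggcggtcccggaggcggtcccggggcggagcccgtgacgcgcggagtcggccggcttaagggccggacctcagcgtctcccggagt
EGLN1: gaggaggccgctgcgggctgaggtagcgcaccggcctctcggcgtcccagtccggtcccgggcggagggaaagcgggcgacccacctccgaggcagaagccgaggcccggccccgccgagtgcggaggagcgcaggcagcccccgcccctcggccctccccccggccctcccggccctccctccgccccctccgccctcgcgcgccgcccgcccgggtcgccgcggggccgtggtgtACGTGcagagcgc
PDK1: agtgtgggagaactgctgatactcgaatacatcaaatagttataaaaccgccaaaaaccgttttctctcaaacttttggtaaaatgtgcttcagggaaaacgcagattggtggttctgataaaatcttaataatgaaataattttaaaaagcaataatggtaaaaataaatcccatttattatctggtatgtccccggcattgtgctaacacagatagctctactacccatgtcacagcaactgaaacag
LDHA: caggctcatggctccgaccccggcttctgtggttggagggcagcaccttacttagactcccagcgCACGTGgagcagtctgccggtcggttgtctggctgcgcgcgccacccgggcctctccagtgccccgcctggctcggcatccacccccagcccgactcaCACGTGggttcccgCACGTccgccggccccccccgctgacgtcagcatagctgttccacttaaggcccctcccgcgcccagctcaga

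EGLN1 holds 1 match, 13 bases before its start, EGLN3 and PDK1 hold 0 in this window, and LDHA holds 5. The LDHA matches include the palindrome CACGTG, which counts on both strands and is also an E-box. Of the 38 members 33 had a promoter in the table, and 22 of them (66.7%) held a match, as did 43.2% of the 35116 promoters of that length. The hypoxia targets held one in 7 of 7 promoters and the transporters in 0 of 2. A match is a stretch of letters and not a shown binding site, and its absence here says only that these letters are not in this window.

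Among the genes that set the fate of pyruvate, PDK1 had the lowest limma p of the list and the lactate dehydrogenases were close to even. PDK1 is a kinase that switches off pyruvate dehydrogenase and so keeps pyruvate out of the mitochondrial citric acid cycle. PDK1 (chr2:172555373-172608669) had 1529, 1012, 1666, 1382 and 1052 normalized counts in knockout 1 to 5 and 673, 662, 1030.1 and 1077 in control 1 to 4. The clones overlapped only through knockout 2 and 5, which lay under control 4, with knockout 2 also under control 3. Its log2 fold change was 0.64 ± 0.22 (SE), with an interval of 0.14 to 1.13, or 1.55 times the control level (limma adjusted p = 0.41). DESeq2 gave an adjusted p of 0.18. The antisense transcript AC078883.1 overlaps its exons and averaged 258 normalized counts, and the sources used here do not give the strand setting of the counting.

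LDHA, the lactate dehydrogenase that favours making lactate from pyruvate, had 13889 to 21354 normalized counts in the knockout clone and 11452 to 23988 in the control clone. The difference was -0.06 on the log2 scale, with an interval of -0.61 to 0.49. LDHB, the form that favours the reverse step, had a log2 fold change of -0.17. LDHB over LDHA differed by -0.11 on the log2 scale between the clones (exact permutation p = 0.38, adjusted over 12 ratios 0.57).

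Of the transporters, SLC16A1 was lower in the knockout clone before adjustment, and the glucose transporters were not. SLC16A1, or MCT1, carries lactate and pyruvate with protons across the membrane. SLC16A1 (chr1:112911847-112957013) had 4091, 4074, 4850, 3093 and 3401 normalized counts in knockout 1 to 5 and 5503, 4788, 5829 and 4551 in control 1 to 4. Only knockout 3 reached into the control range. On the log2 scale it differed by -0.42, with an interval of -0.79 to -0.04 (limma adjusted p = 0.52). With quantile normalization it was -0.12, and the antisense transcript SLC16A1-AS1 overlaps its exons at a mean of 195 normalized counts.

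SLC2A1, or GLUT1, the basal glucose transporter and a known hypoxia target, had 12773, 9391, 10029, 6996 and 5337 normalized counts in knockout 1 to 5 and 10679.5, 8433, 8908 and 6644 in control 1 to 4. In all 4 pairs of libraries with the same number the knockout value was higher, yet knockout 5, which has no partner, was the lowest of all 9. The log2 fold change was therefore -0.00 with an interval of -0.60 to 0.59, and 0.16 with the replicate number as a block. SLC2A3, or GLUT3, a transporter of high glucose affinity, was highest in control 1 at 15986 normalized counts, against 5880 to 9861 in the knockout clone and 7102 to 7918 in the other control libraries. SLC16A3, or MCT4, which exports lactate from glycolytic cells, had a log2 fold change of 0.01. On the opposite strand CSNK1D overlaps the exons of SLC16A3 at a mean of 711 normalized counts, above SLC16A3 itself.

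In upper glycolysis HK1 was the one gene of 11 with an unadjusted p under 0.05. Hexokinases trap glucose in the cell by phosphorylation. HK1 (chr10:69269984-69401884) had 1400.5, 1542, 1621, 1277 and 1238 normalized counts in knockout 1 to 5 and 2223, 1634, 2656 and 1455 in control 1 to 4. Control 1, 2 and 3 lay above the knockout range, control 2 only just, and control 4 lay inside it. On the log2 scale HK1 differed by -0.46, with an interval of -0.89 to -0.02 (limma adjusted p = 0.55).

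HK2, the hexokinase that hypoxia induces, had 813 to 1129.5 normalized counts in the knockout clone and 928 to 1378 in the control clone. The difference was -0.10 on the log2 scale, with an interval of -0.47 to 0.27. HK2 over HK1 was 0.733, 0.527, 0.697, 0.770 and 0.719 in knockout 1 to 5 and 0.422, 0.568, 0.519 and 0.651 in control 1 to 4. Knockout 2 was the one knockout ratio inside the control range, and the difference of 0.36 in mean log2 ratio had an exact permutation p of 0.063 (adjusted over 12 ratios 0.38).

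The phosphofructokinase genes PFKL, PFKM and PFKP, which encode the committed step, had log2 fold changes of -0.05, 0.03 and -0.12. On the opposite strand SENP1 overlaps the exons of PFKM at a mean of 343 normalized counts. PFKFB4, which makes and breaks the activator fructose 2,6-bisphosphate, had the largest positive value of upper glycolysis at 0.42, with an interval of -0.24 to 1.09. It ranged from 361 to 778 normalized counts in the knockout clone and from 279.7 to 709 in the control clone. Its relative PFKFB3 stood at 0.03. GPI, ALDOA, ALDOC and TPI1, the isomerases and aldolases of the pathway, lay between -0.21 and -0.05.

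The 6 genes of lower glycolysis had 0 unadjusted p-values under 0.05. GAPDH had 32983, 39632, 55415, 34341 and 32322.5 normalized counts in knockout 1 to 5 and 43737, 31168.5, 68011 and 31611 in control 1 to 4. Replicate 3 was the highest library of each clone, and the log2 fold change of -0.12 had an interval of -0.78 to 0.55. PGK1, a kinase of the first ATP-yielding step that is encoded on the X chromosome (chrX:77910739-78129296), had 7017 to 12209 normalized counts in the knockout clone and 6376 to 12273 in the control clone. PGK1 differed by 0.17 on the log2 scale, with an interval of -0.36 to 0.70, and by 0.02 without control 2 and 0.33 without control 1. With size factors from protein-coding genes it differed by 0.28, and with quantile normalization by 0.49.

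PKM, the pyruvate kinase that closes the pathway, had 6566 to 12092 normalized counts in the knockout clone and 7555 to 13304 in the control clone. It was lower in the knockout clone in 4 of 4 same-numbered pairs, with a log2 fold change of -0.29 and an interval of -0.82 to 0.23. The neuronal enolase ENO2 had 1849, 2094, 1515, 1453 and 1353 normalized counts in knockout 1 to 5 and 2114, 994, 1226 and 1003 in control 1 to 4. Control 1 was the highest of all 9 libraries and the other control libraries lay below every knockout library. ENO2 had a log2 fold change of 0.36, and 0.61 without control 1.

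**Figure D3:**
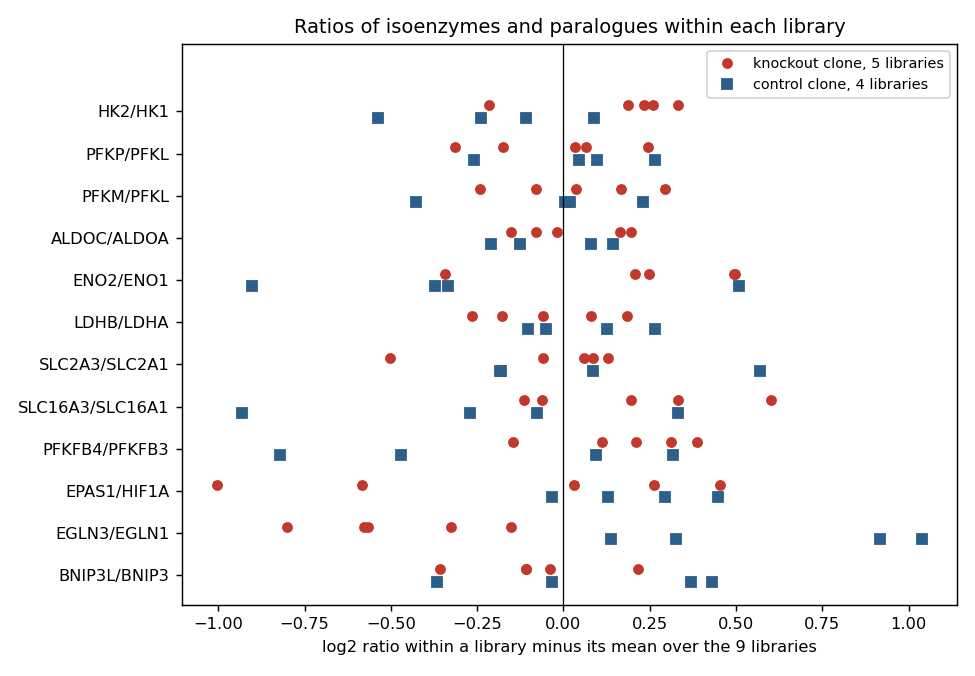
Log2 ratio of 12 pairs of isoenzymes or paralogues in each library, minus the mean over the 9 libraries, for the knockout clone (circles) and the control clone (squares). EGLN3/EGLN1 is the ratio whose clones do not overlap, with a difference of -1.09, and 0 of 12 ratios passed adjustment.

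Over the 12 ratios the count that passed adjustment was 0 and the count with an unadjusted exact permutation p under 0.05 was 1, that of EGLN3 over EGLN1. The ratios ENO2/ENO1, SLC16A3/SLC16A1 and PFKFB4/PFKFB3 were higher in the knockout clone by 0.50, 0.43 and 0.39 on the log2 scale, each with an adjusted p of 0.42 by the exact permutation test. Leaving out 1 library gave 0.29 (without control 3) to 0.76 (without control 1) for ENO2/ENO1 and 0.20 (without control 3) to 0.62 (without control 1) for SLC16A3/SLC16A1. For PFKFB4/PFKFB3 it gave 0.19 (without control 2) to 0.57 (without control 4). Apart from HK2/HK1, the other ratios differed by -0.38 to 0.08.

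Of the 10 hypoxia targets 0 had an unadjusted p under 0.05, and NDRG1 had the largest difference of all 38 members and the widest interval. NDRG1, a stress-responsive gene that HIF induces, had 559, 282, 220.1, 208 and 122 normalized counts in knockout 1 to 5 and 469, 68.4, 62.0 and 62.3 in control 1 to 4. Control 1 lay among the knockout values and above all but knockout 1, while the other control libraries lay below every knockout library. Its log2 fold change was 1.20 ± 0.64 (SE), with an interval of -0.24 to 2.64 (limma adjusted p = 0.67). Without control 1 it was 1.92 (adjusted p = 0.15), and without both libraries numbered 1, an alternative chosen after the data were seen, 1.62 (adjusted p = 0.12). DESeq2 put it at 0.76 and edgeR at 0.80 with all libraries.

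Control 1, the highest control library for NDRG1, was the highest of all 9 libraries for P4HA1, a collagen prolyl hydroxylase subunit that HIF induces. P4HA1 had 1469, 1700.2, 1296, 1080.0 and 885 normalized counts in knockout 1 to 5 and 3138, 993, 792 and 1008 in control 1 to 4. Its log2 fold change was -0.00, and 0.44 without control 1. The part of that passage in these results was not tested.

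VEGFA, the main angiogenic growth factor, had 499, 468, 309.7, 257 and 324 normalized counts in knockout 1 to 5 and 560.0, 424, 441 and 344 in control 1 to 4. The clones overlapped, and the log2 fold change was -0.28 with an interval of -0.79 to 0.24. It was -0.16 without control 1 or without knockout 4. The antisense transcript AL136131.3 overlaps the exons of VEGFA at a mean of 158 normalized counts. CA9, a carbonic anhydrase of the cell surface that is often used as a marker of hypoxia, was near the limit of detection at 6.71 to 27.1 normalized counts in the knockout clone and 9.03 to 31.9 in the control clone. On the opposite strand ARHGEF39 overlaps the exons of CA9 at a mean of 162 normalized counts, above CA9 itself. The strand setting of the counting is not given. DDIT4, an inhibitor of mTOR signalling, had 660.4 to 2379 normalized counts in the knockout clone and 1276 to 2724 in the control clone. The mitophagy receptors BNIP3 and BNIP3L, the peptide hormone ADM, ANKRD37 and the histone demethylase KDM3A had log2 fold changes between -0.20 and 0.17. ANKRD37 is overlapped in the same way by UFSP2, at a mean of 473 normalized counts, above ANKRD37 itself. BNIP3 has 39 processed copies in the table whose summed level was 48.0% of its own in the knockout clone and 52.0% in the control clone, so its reads may be shared with them.

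**Figure D4:**
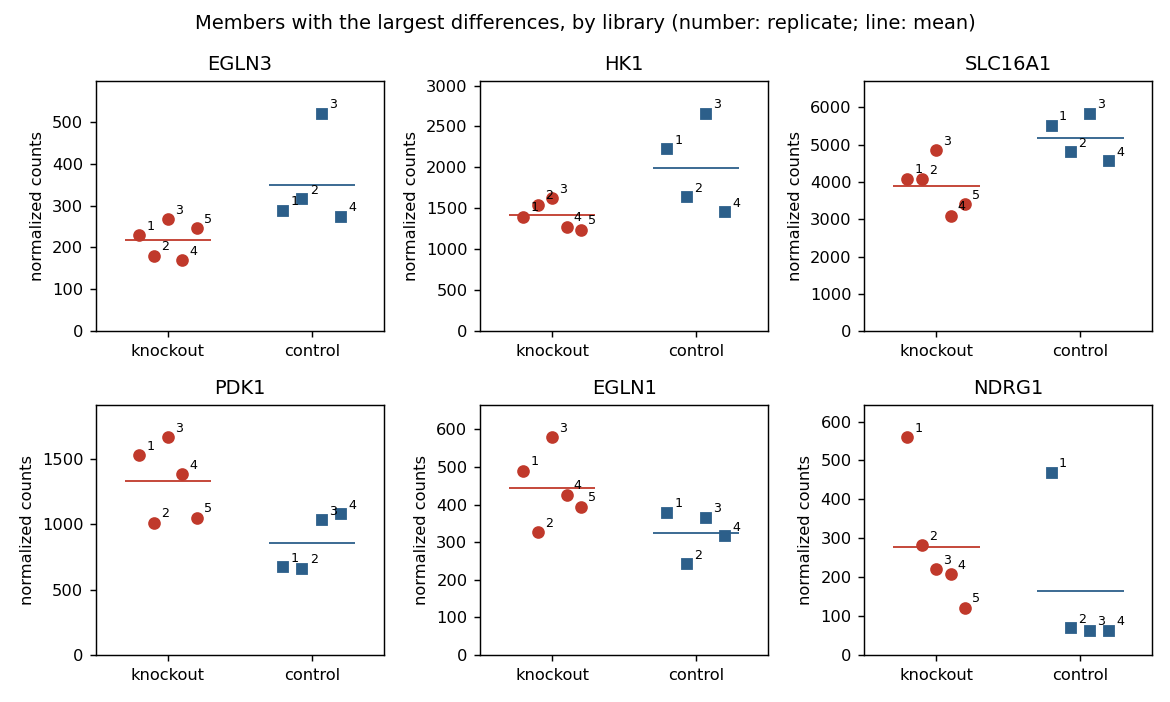
Normalized counts by library (points numbered by replicate) and clone means (lines) for the 6 members with the largest differences, knockout left of control. EGLN3 separates the clones, and NDRG1 is at 469 in control 1 and 62.0 to 68.4 in the other control libraries.

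The same-numbered pairs give a second view of the members. By the correlations given below, only the pairs numbered 3 and 4 were more alike than all pairs of different numbers. Knockout was above control in 4 of 4 pairs for 4 members, SLC2A1, EGLN1, PDK1 and NDRG1, where 9.97% of all tested rows showed this. Knockout was below control in 4 of 4 pairs for SLC16A1, HK1, EGLN3 and PKM, where 10.9% of rows did. With the replicate number as a block limma called 0 of 38 members and 0.155% of rows.

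Protein-coding reads were 26.3% (knockout 1) to 50.8% (control 3) of a library, and of these the members took 1.86% to 2.36%. As a percentage of protein-coding reads they made up 2.36, 2.17, 2.33, 2.16 and 1.88% in knockout 1 to 5 and 2.28, 1.86, 2.02 and 2.05% in control 1 to 4. The 10 hypoxia targets took 0.142, 0.108, 0.0990, 0.0992 and 0.0753% in the knockout clone and 0.119, 0.0853, 0.0747 and 0.0945% in the control clone. The share of the hypoxia targets was highest in replicate 1 of each clone. Control 3 was the highest of 9 libraries for 22 members with the authors' size factors and for 5 with factors from protein-coding genes.

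**Figure D5:**
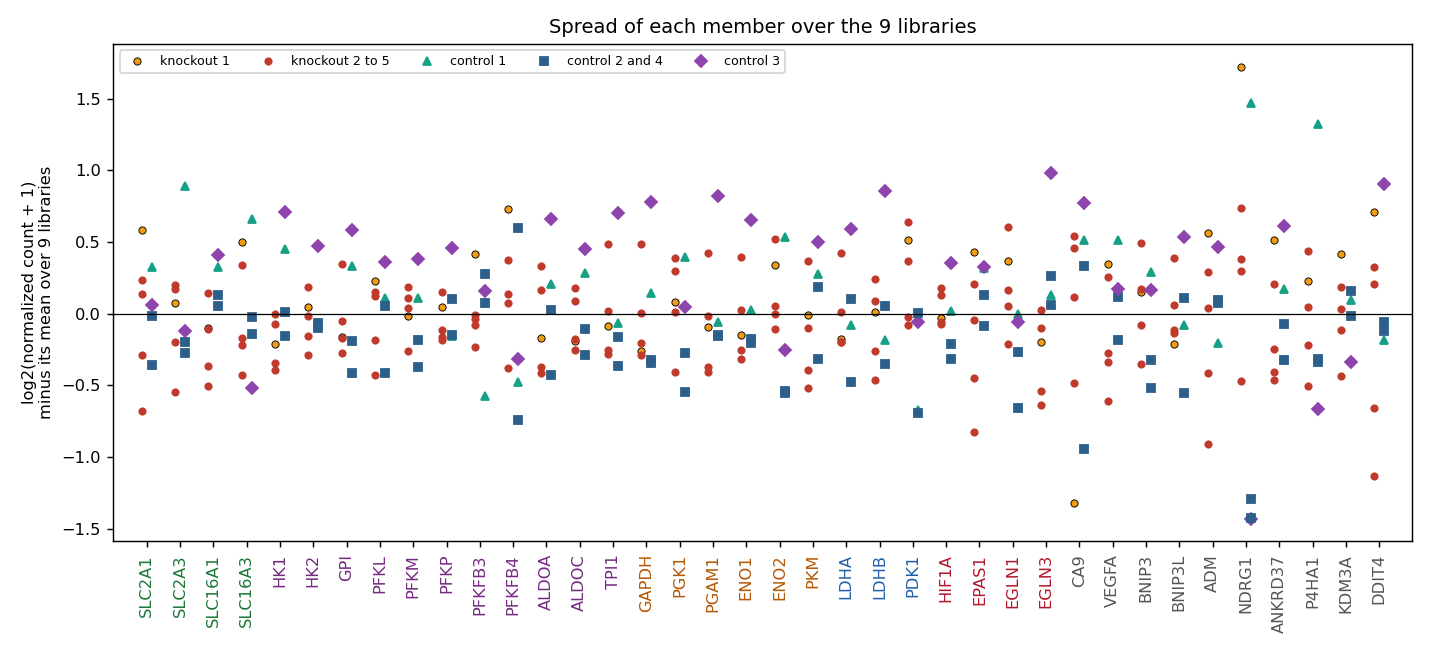
Log2 of the normalized count plus 1 of each member in each library, minus its mean over the 9 libraries. Control 3 (diamonds) is the highest for 22 of 38 members, and control 1 (triangles) stands above the other control libraries for NDRG1, P4HA1 and SLC2A3.

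Other genes of the pathways gave few calls. Among 27 tested genes of other glycolytic, gluconeogenic and glycogen steps limma called 0, with 5 unadjusted p-values under 0.05 (18.5%, against 8.63% of all tested rows), and the median log2 fold change was -0.12. Limma called 0 of 20 genes for glucose and pyruvate entry (median -0.14), 0 of 7 of the pentose phosphate pathway (median -0.12), 0 of 16 for HIF regulation (median -0.14) and 0 of 42 of other hypoxia response genes (median -0.01). The last had 7 unadjusted p-values under 0.05 (16.7%), of which 2 belonged to genes with positive and 5 to genes with negative log2 fold changes, as did 994 and 1403 of all tested rows. In the 3 lists where no tool and not the authors' deposited table called a gene, the largest differences were 0.80 for SLC16A8, a lactate transporter, -0.56 for SIAH2, a ubiquitin ligase that acts on the hydroxylases, and -0.40 for TKT, the transketolase. Without control 3 they were 0.49, -0.27 and -0.23.

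LDHD, a mitochondrial D-lactate dehydrogenase, was listed with the other glycolytic, gluconeogenic and glycogen genes. In that list it was the one gene that DESeq2 and the authors' deposited table called. It had 34.5, 32.7, 21.0, 24.7 and 21.4 normalized counts in knockout 1 to 5 and 82.9, 52.8, 63.8 and 46.1 in control 1 to 4. The clones did not overlap, as in 3.95% of all tested rows, and the log2 fold change was -1.16 ± 0.26 (SE), with an interval of -1.73 to -0.58. The adjusted p was 0.12 with limma, 0.15 with edgeR and 0.013 with DESeq2, and 0.0043 in the authors' deposited table.

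The VEGF receptors FLT1 and KDR were lower in the knockout clone by the authors' deposited table, with adjusted p of 0.032 and 0.039, and not by limma, with 0.29 and 0.30, by edgeR, with 0.29 and 0.23, or by DESeq2 on the recovered reads, with 0.054 and 0.058. FLT1 had 542, 503, 661, 522 and 495 normalized counts in knockout 1 to 5 and 675, 688, 872 and 768 in control 1 to 4. KDR had 443, 362, 438, 292 and 324 normalized counts in the knockout clone and 949, 458, 775 and 489.5 in the control clone. Neither gene overlapped between the clones, as was so for 3.95% of all tested rows, and their log2 fold changes were -0.46 and -0.80. The interval of their ligand VEGFA, given above, includes 0.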

How the data were processed

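RNA came off columns with a DNase step, and libraries from a stranded total RNA kit with removal of ribosomal RNA, per the labels. The submitters' processing notes name fastp, kallisto, DESeq2 and hg38, without versions. The sources used here give no annotation release or strand setting. The deposited table holds 1 signal column per library, gene counts that the authors divided by a size factor (normalized counts). Its mean signal, log2 fold change, test score and p-values are the authors' own deposited values and were only quoted. All values (100%) were whole multiples of 1 read within a tolerance of 1e-06, so reads were recovered, and 0 other columns of per-sample values were present.

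Clones were compared with limma (3.58.1, under R 4.3.3) on log2(normalized count + 1), using a trended prior and the clone as the only term, on all 9 libraries and the 27777 rows kept by edgeR's filterByExpr at a minimum count of 10. All 38 members were kept. P-values were adjusted over all tested rows by the Benjamini-Hochberg method at 0.05, and fold changes on this scale understate those of low genes. edgeR's quasi-likelihood test (version 4.0.16) on the recovered reads called 151 rows and DESeq2 (version 1.42.0) 593. Ratios were compared by two-sided exact permutation of the clone labels. Positions and merged exon lengths came from GENCODE 29 (GRCh38).

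Replicate numbers stand under a batch tag in the labels, and same-numbered libraries were therefore treated as pairs. Their correlations of deviations from the mean of the clone were 0.06, 0.01, 0.28 and 0.36, for numbers 1 to 4 in turn. Libraries of different numbers gave -0.33 (control 3 with knockout 4) to 0.24 (control 4 with knockout 5). The values 0.06 and 0.01 lay within that range, so they do not show that those pairs were more alike than unmatched libraries. The values 0.28 and 0.36 lay above it. Knockout 5 has no partner and adds nothing to the fold change of the blocked fit, which called 43 rows against 150 without the block.

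Members given in full were those called by any test, those not overlapping between clones, the 3 largest differences in each direction, and HIF1A, EPAS1, SLC2A1, HK2, GAPDH, PGK1, PKM, LDHA, PDK1 and VEGFA whatever their values. ENO2 and P4HA1 were added after their values were seen. Members and lists were chosen with earlier results of these data known. Scripts were tested on simulated data. Alternatives covered the pseudocount, the filter, 3 other normalizations, the tools, the block and leaving out each library.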

Additional observations from a re-analysis of the deposited data

Results flagged for a closer look

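In 10 genes 1 library stood far from the others of its clone, by a gap that takes most of the range of that clone (Dixon's critical value at 95%). Chance does this in about 1 in 20 groups. Over all tested rows it held for 5.71% in the knockout clone, where 2 of 38 members were so marked, and for 7.59% in the control clone, where 7 of 38 were.

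In the knockout clone, PFKFB3 was at 732 normalized counts in knockout 1 and at 467 to 543 in the other libraries. LDHA was at 21354 in knockout 3, against 13889 to 16037 in the others. FLT1, no member, was at 661 in knockout 3 and at 495 to 542 in the others.

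In control 1, NDRG1 was at 469 normalized counts, 7.30 times the mean of the other control libraries, which held 62.0 to 68.4. P4HA1 was at 3138 there, 3.37 times the mean of the others at 792 to 1008, and SLC2A3 at 15986, 2.13 times the mean of the others at 7102 to 7918.

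In control 3, EGLN3 was at 520 normalized counts, against 274 to 315 in the other control libraries. HK2 was at 1378 there, against 928 to 947. PGAM1 was at 13099, against 6654 to 7126, and DDIT4 at 2724, against 1276 to 1396.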

How the results depend on the processing

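No setting called a member (0 with limma and in 21 alternatives, edgeR and DESeq2 included, all 38 being tested except EPAS1 and CA9 under the filter at a mean of 50), with 4 members at an unadjusted p under 0.05 in the reported setting, 5 with size factors from protein-coding genes and 6 with the replicate block, which raised the share of all tested rows to 11.2%. The lowest adjusted p of a member in any setting was 0.12, for NDRG1 without both libraries numbered 1, a choice made after the data were seen. Over all rows limma called 150 genes, DESeq2 593, the fit with the replicate block 43 and the fit without both libraries numbered 1 68, and leaving out 1 library at a time gave 79 to 186, with under 100 without control 1, 2 or 3 or knockout 2, 4 or 5. The block changed no call of a member. The median member log2 fold change lay between -0.20 and 0.03 with 1 library left out, and was 0.14 with quantile normalization. Of 38 members 14 kept the sign of their log2 fold change in all settings that gave a value and 24 did not. SLC2A1 turned positive with TMM factors (0.042), quantile normalization (0.30), factors from protein-coding genes (0.10), edgeR (0.085), DESeq2 (0.060) and the replicate block (0.16). Quantile normalization also turned HK2 (0.050), GAPDH (0.066), PKM (0.068) and LDHA (0.27), and protein-coding factors turned HK2 (0.0057) and LDHA (0.046). With 1 library left out the log2 fold change ran from -0.025 to 0.20 for HIF1A, -0.15 to 0.16 for SLC2A1, -0.16 to 0.037 for HK2, -0.25 to 0.12 for GAPDH and -0.23 to 0.12 for LDHA. The log2 ratio difference then ran from -0.17 to 0.0080 for PFKP/PFKL, -0.049 to 0.17 for PFKM/PFKL, -0.010 to 0.11 for ALDOC/ALDOA and -0.22 to 0.036 for SLC2A3/SLC2A1, which was 0.15 without both libraries numbered 1. EGLN3/EGLN1 ran from -1.25 to -0.94. Of the fold changes that then kept their sign, EPAS1 ran from -0.45 to -0.14, PKM from -0.45 to -0.18 and HK1 from -0.60 to -0.31. In every setting 0 of 12 ratios passed. With a library left out or libraries paired, fewer rearrangements remain and the smallest possible permutation p grows. There the count of 0 was fixed or nearly fixed by the design, so it does not show that the ratios are stable. The cause of the shifts between settings was not tested. Depth limits EPAS1 and CA9, which stayed under 50 normalized counts.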

Other observations

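Hypoxia response genes outside the 38 members showed which passage held the highest values. Of 42 such genes tested, control 1 was the highest of the 9 libraries for 12, control 3 for 10 and knockout 1 for 8, while control 1 was the highest for 11.4% of all tested protein-coding genes, control 3 for 49.2% and knockout 1 for 5.22%. With size factors from protein-coding genes, control 1 was the highest for 15 of these genes, control 3 for 4 and knockout 1 for 11, against 15.2%, 23.0% and 6.93% of tested protein-coding genes. These are descriptions of single libraries, with no test.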
